A study of Arabidopsis thaliana with 8 samples.

Results

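The genes described here are the 6 members of the *FT*/*TFL1* family of *Arabidopsis thaliana*, which encode proteins of the phosphatidylethanolamine-binding type (PEBP). They are *FT* (AT1G65480), *TSF* (AT4G20370), *TFL1* (AT5G03840), *BFT* (AT5G62040), *ATC* (AT2G27550) and *MFT* (AT1G18100, listed under the symbol E12A11 in RefSeq). They were taken by locus identifier from 27444 protein-coding genes, and peaks were collected from 6000 bp upstream of each gene start to 3000 bp downstream of its end. The layout of peaks at *TSF* and the other members was compared with that at *FT*. The samples were whole seedlings of Columbia (Col-0) plants grown under long days (16 h light, 8 h dark) and harvested 12 h after dawn (ZT12). Both genotypes carried the same insertion, line #5, of CONSTANS fused to CITRINE (CO:CIT) under the *SUC2* promoter, which is active in phloem companion cells. One genotype was *SUC2::CO:CIT aba1-6*, in which a mutation of *ABA1* impairs the production of abscisic acid (ABA), and the other was *SUC2::CO:CIT* with the wild type allele. Each had 2 biological replicates immunoprecipitated through the tag with GFP-Trap, and each replicate had an input sample. Since the fusion comes from a transgene, and from 1 insertion only, the peaks describe this line and not CO at its native level. Peak lists hold no value by which the genotype labels could be checked.

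FT is the florigen, a protein made in the leaf phloem under long days that travels to the shoot apex and promotes flowering there together with the bZIP protein FD. TSF is its closest relative, with the same activity. TFL1, ATC and BFT act in the opposite direction and delay flowering or keep the inflorescence meristem indeterminate, and MFT acts mainly in seeds, where it is part of the ABA response during germination. CO is the photoperiod regulator of *FT* transcription. It binds DNA through its CCT domain, at elements that contain the word TGTG, in a complex with the NF-YB and NF-YC subunits. With NF-YA in place of CO, these subunits recognise CCAAT boxes.

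The sequences below are those of the family's regions next to the gene starts, of the *FT* first intron, and of further regions at *TSF* and *MFT*. Each is the 100 bp around the centre of a peak region in TAIR10.1 (RefSeq), on the strand of the gene and from 5′ to 3′, and capitals mark TGTG or CACA, and CCAAT or ATTGG.
FT, centred at −462 bp, chr1:24330861-24330960, plus strand: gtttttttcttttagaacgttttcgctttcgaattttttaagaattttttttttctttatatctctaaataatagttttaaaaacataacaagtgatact
FT, first intron, centred at 768 bp, chr1:24332091-24332190, plus strand: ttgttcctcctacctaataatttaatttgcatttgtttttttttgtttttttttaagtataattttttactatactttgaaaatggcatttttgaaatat
TSF, centred at −687 bp, replicate 1 only, chr4:11003647-11003746, minus strand: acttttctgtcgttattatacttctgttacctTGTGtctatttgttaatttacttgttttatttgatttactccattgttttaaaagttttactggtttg
TSF, downstream, centred at 2894 bp, chr4:11000066-11000165, minus strand: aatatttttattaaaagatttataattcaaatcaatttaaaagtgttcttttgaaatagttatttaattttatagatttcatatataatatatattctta
ATC, centred at −350 bp, chr2:11772787-11772886, plus strand: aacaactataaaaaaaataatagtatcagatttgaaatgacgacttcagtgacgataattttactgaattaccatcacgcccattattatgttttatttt
MFT, centred at −322 bp, chr1:6230466-6230565, minus strand: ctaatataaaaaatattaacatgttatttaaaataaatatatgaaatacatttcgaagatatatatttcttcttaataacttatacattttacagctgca
MFT, centred at −3043 bp, chr1:6233187-6233286, minus strand: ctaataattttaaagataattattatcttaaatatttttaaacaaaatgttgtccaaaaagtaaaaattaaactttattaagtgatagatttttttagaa
Every one of these 7 stretches is AT-rich. The *TSF* stretch at 2894 bp had the lowest GC content of them, 11%, with a run of 16 bp without G or C, and the *MFT* stretch at −322 bp held a run of 19 bp. The *FT* stretch at −462 bp had 20% GC and a longest run of 12 bp. A TGTG word stands only in the *TSF* stretch at −687 bp, and no CCAAT word stands in any of the 7. This depends on which regions are printed. Among the others, the 100 bp at *TSF* −5129 bp, *TFL1* 4728 bp and *MFT* −4639 and −5333 bp hold CCAAT or ATTGG. Those at *FT* 5682 bp, *TFL1* 4728 bp and *ATC* −2886 bp hold TGTG or CACA.

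A peak is given here by its summit, by the DNA fragments stacked at that summit, and by the fold enrichment, the ratio of these fragments to the local background with 1 added to both. Distances are in bp from the gene start, negative upstream. A region is called shared where a peak of each *SUC2::CO:CIT* replicate overlapped by at least 1 bp, and its position is the midpoint of the replicates' summits. The *SUC2::CO:CIT aba1-6* lists held 168 and 258 peaks, against 21054 and 22724 in *SUC2::CO:CIT*, where 16315 shared regions were formed. The genome background recovered from the peaks was 3.57 and 0.774 fragments in *SUC2::CO:CIT aba1-6*, against 11.2 and 10.8 in *SUC2::CO:CIT*.

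In *SUC2::CO:CIT*, 5 of the 6 genes had a shared region in their window, and *BFT* had none. The share of all protein-coding genes with such a region was 71.5%, so that the family stands near the background. Replicate 1 had a peak in the window of 5 members, against 78.1% of all genes, and replicate 2 had one in the window of the same 5 members, against 81.1% of all genes. In total, the windows held 23 peaks in replicate 1 and 19 in replicate 2, and 17 shared regions reached into them. The replicate 2 peaks of the *FT* region at 5682 bp and of the *TFL1* region at 4728 bp lay beyond the window. The centres of these regions lay beyond it too, and only their replicate 1 peaks reach in. All genes were counted by the same rule. *MFT* had 4 shared regions, *TSF* and *TFL1* had 3 each and *ATC* had 2, whereas *FT* had 5. Over all genes the median was 1 and the mean 1.52.

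**Figure D1:**
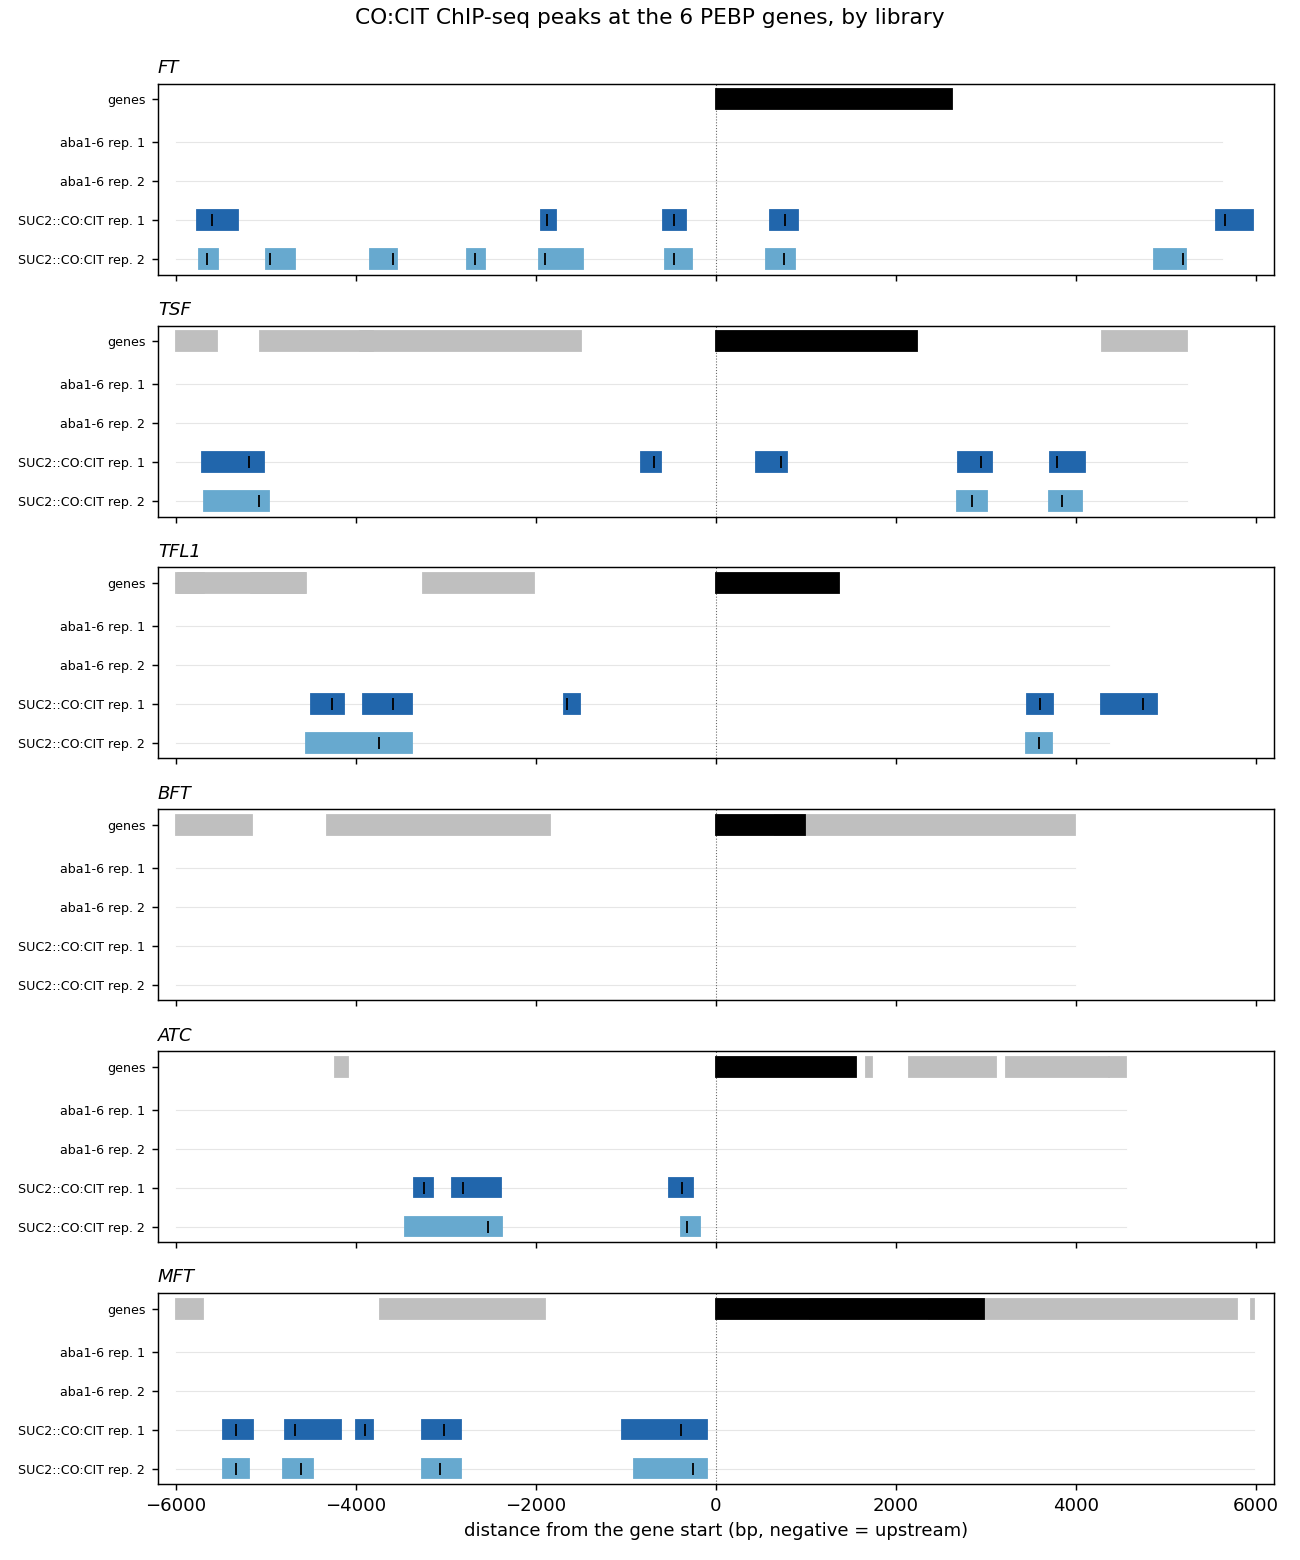
Peaks in the windows of the 6 genes, in bp from the gene start on the x axis, with 1 row for each library (*SUC2::CO:CIT aba1-6* above *SUC2::CO:CIT*). Black bars are the named genes, grey bars other annotated genes in the window, coloured bars peaks and ticks their summits. Both *aba1-6* rows are empty at every gene, and *BFT* has no peak in any row. The replicate 2 partners of the last *FT* and *TFL1* regions start beyond the window and are not drawn.

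*FT* lies at chr1:24331373-24333999 on the plus strand, with no other annotated gene in its window. Its 5 shared regions were centred at −5626, −1883, −462, 768 and 5682 bp. The region at −5626 bp had a fold enrichment of 3.45 and 3.55 in replicates 1 and 2, with 41 summit fragments in each. That at −462 bp had 44 and 38 fragments and a fold enrichment of 3.69 and 3.30, a mean of 3.50 ± 0.28 (SD, n = 2), and its summits lay 3 bp apart. The 2 strongest *FT* regions by mean fold enrichment, at −5626 and −462 bp, differed by less than the SD of the replicates. The region at −5626 bp lies closer to the start of *FAS1*, a chromatin assembly factor subunit gene, at 1656 bp, than to that of *FT*.

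The first intron of *FT* also carried a shared region, at 768 bp (chr1:24331934-24332292). It had 41 and 32 summit fragments, and its fold enrichment was 3.45 and 2.79, a mean of 3.12 ± 0.47 (SD, n = 2). It was the only shared region of the family that touched a member gene itself, which 15.5% of all genes have. The region at −1883 bp was weaker, with 33 and 28 fragments and a fold enrichment of 2.79 and 2.45. Its −log10 q was 5.80 and 3.98. The paper, with its own filters, reports that the peak at the CAAT-binding site in this part of the promoter was not significant. It proposes the TGTG elements of the proximal promoter as the principal place of CO binding at *FT*. It reports no peak there in the ABA-deficient line, and its ChIP-seq did not establish binding at an element in the second intron. The region at −462 bp reached from −586 to −266 bp and held 0 TGTG or CACA words. Whether this region covers the elements that the paper describes was not tested. At 5682 bp, with its centre just beyond the end of the window, a region had 36 and 30 fragments and a fold enrichment of 3.04 and 2.62. A further 4 peaks of *FT*, with summits at −4958, −3586, −2677 and 5197 bp, were called in replicate 2 only. They had 33, 25, 27 and 26 summit fragments, and the peak at −3586 bp had the lowest fold enrichment of any peak at the family, 1.93.

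The number of shared regions at *FT* is high among all genes but not among genes with as much empty space. At least 5 shared regions were found at 3.75% of all genes. *FT* is 1 of 109 genes with no other gene in a window of the same rule. Of these, 34.9% had at least 5 shared regions, their median was 4 and their highest count was 11. This comparison was added after the counts had been seen.

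**Figure D2:**
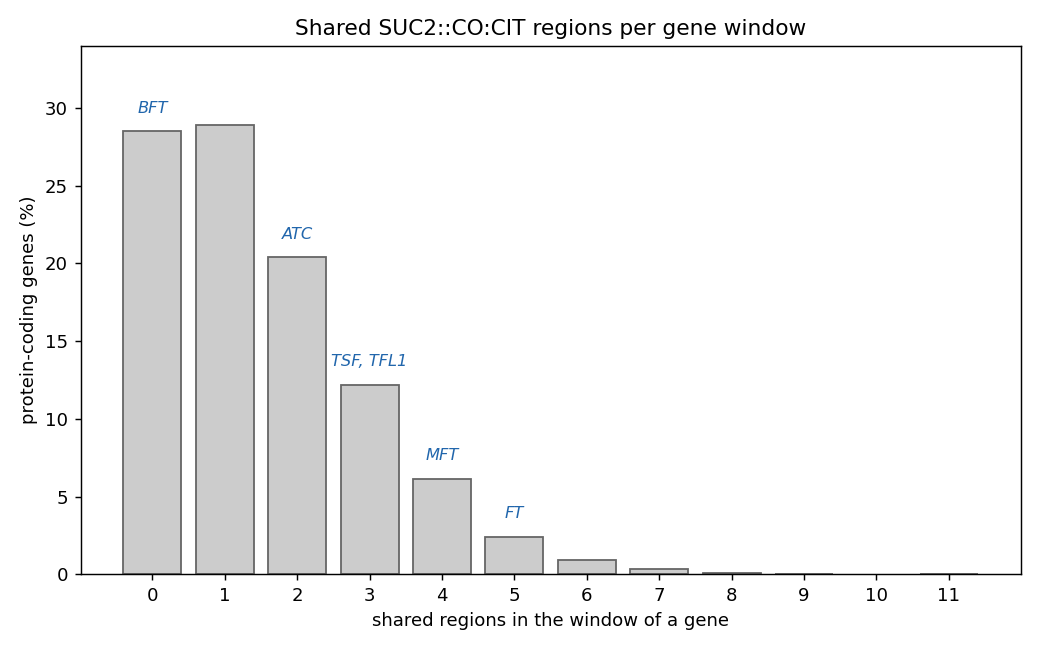
Percent of the 27444 protein-coding genes (y axis) by the number of shared *SUC2::CO:CIT* regions in their window (x axis), with the 6 family members named above their bar. *BFT* is in the bar at 0, and *FT*, with 5 regions, lies in the right tail.

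*TSF* (chr4:11000771-11003010, minus strand), the closest relative of *FT*, had no shared region in the 1000 bp upstream of its start and none in its introns. Its 3 shared regions lay at −5129, 2894 and 3821 bp, the last 2 of them in the intergenic space behind the gene. The region at 3821 bp had 45 and 44 summit fragments, with a fold enrichment of 3.78 and 3.80. That at 2894 bp had 32 and 53 fragments, with 95% Poisson intervals of 21.9 to 45.2 and 39.7 to 69.3 that overlap. Its fold enrichment was 2.71 and 4.56, a mean of 3.64 ± 1.31 (SD, n = 2), the largest spread between replicates in the family. Both downstream regions were closer to the start of *TSF* than to any other gene start.

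Upstream, the only shared region of *TSF* was centred at −5129 bp, 419 bp from the start of *JMJ14*, a histone demethylase gene transcribed away from *TSF*, and it spans that start. It had 39 and 40 fragments and a fold enrichment of 3.28 and 3.46. *TSF* differs from *FT* in this neighbourhood, since *LSD1*, AT4G20390 and the start of *JMJ14* occupy most of the upstream window. Nearer to the gene, replicate 1 alone had a peak at −687 bp (chr4:11003616-11003842), with 36 fragments over a raised background of 13.1. Its fold enrichment was 2.63, at a −log10 q of 5.66. Replicate 1 alone also had a peak in the first intron at 725 bp, with 26 fragments, and it was 2.22 times enriched at a −log10 q of 3.02. At both positions replicate 2 had no called peak, and its signal below the threshold was not analysed here. The *FT* peaks nearest to these distances, at −462 and 768 bp, were called in both replicates.

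*ATC* (chr2:11773187-11774746, plus strand), a floral repressor of the *TFL1* type, and *MFT* (chr1:6227217-6230194, minus strand) had a shared region directly upstream, as *FT* had. Such a region in the 1000 bp upstream was thus found at 3 of the 6 members, and at 30.3% of all genes. At *ATC* it was centred at −350 bp, with 31 and 30 fragments and a fold enrichment of 2.63 and 2.62, and at *FT* with 44 and 38 fragments. Both *ATC* values lay below both *FT* values, but the 95% intervals overlapped, at 21.1 to 44.0 fragments for *ATC* and 32.0 to 59.1 for *FT* in replicate 1. The start codon of *ATC* lies 230 bp behind its gene start, so that the summits were at −611 and −548 bp from it. At *FT* the first listed start codon lies 5 bp behind the gene start. The other shared region of *ATC*, at −2886 bp, was 1089 bp wide, from 2 peaks in replicate 1 and 1 in replicate 2, and it had 41 and 46 fragments at the highest summits. Its fold enrichment was 3.45 and 3.97, and AT2G27540 had the nearest start, at 1350 bp.

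The region upstream of *MFT* was centred at −322 bp and was 945 bp wide, against 321 bp at *FT*. It had 41 and 50 fragments and a fold enrichment of 3.45 and 4.31, a mean of 3.88 ± 0.61 (SD, n = 2), which overlaps the range at *FT*. *MFT* carried the strongest region of the family as well, at −3043 bp (chr1:6233021-6233458), within an exon of the pseudogene AT1G18120. There 69 and 75 fragments were stacked at the summits, and enrichment was 5.75-fold and 6.42-fold. The peak ranked 252 of 21054 in replicate 1 and 73 of 22724 in replicate 2 by p-value, against ranks of 5122 and 8853 for *FT* at −462 bp. Its 95% interval in replicate 2, 59.0 to 94.0 fragments, lies above that of the *FT* peak, 26.9 to 52.2. In replicate 1 the interval was 53.7 to 87.3 at *MFT* and 32.0 to 59.1 at *FT*, so that they overlap.

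Farther upstream of *MFT*, shared regions at −4639 and −5333 bp had 49 and 47, and 38 and 31 fragments. The region at −5333 bp lies 368 bp from the start of AT1G18130. Only the region at −322 bp was nearest to the start of *MFT* itself. A peak at −3900 bp, with 34 fragments, was called in replicate 1 only.

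*TFL1* (chr5:1024500-1025872, minus strand), which keeps the shoot apex in an indeterminate state, had no shared region within 3000 bp of its start upstream, and none in the gene. Its 3 shared regions lay at −3663, 3595 and 4728 bp. The region at −3663 bp was 1186 bp wide, from 2 peaks in replicate 1 and 1 in replicate 2, and had 55 and 54 fragments with a fold enrichment of 4.60 and 4.65. It lies 404 bp from the start of AT5G03850 and between that gene and the noncoding RNA gene AT5G00940. Behind the gene, the region at 3595 bp had 50 and 43 fragments over a background of 12.7 and 11.9, and a fold enrichment of 3.73 and 3.41. That at 4728 bp, with its centre just beyond the end of the window, had 58 and 37 fragments and a fold enrichment of 4.84 and 3.21. In replicate 1 only, a peak at −1659 bp was 2.55 times enriched, with 30 fragments.

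**Figure D3:**
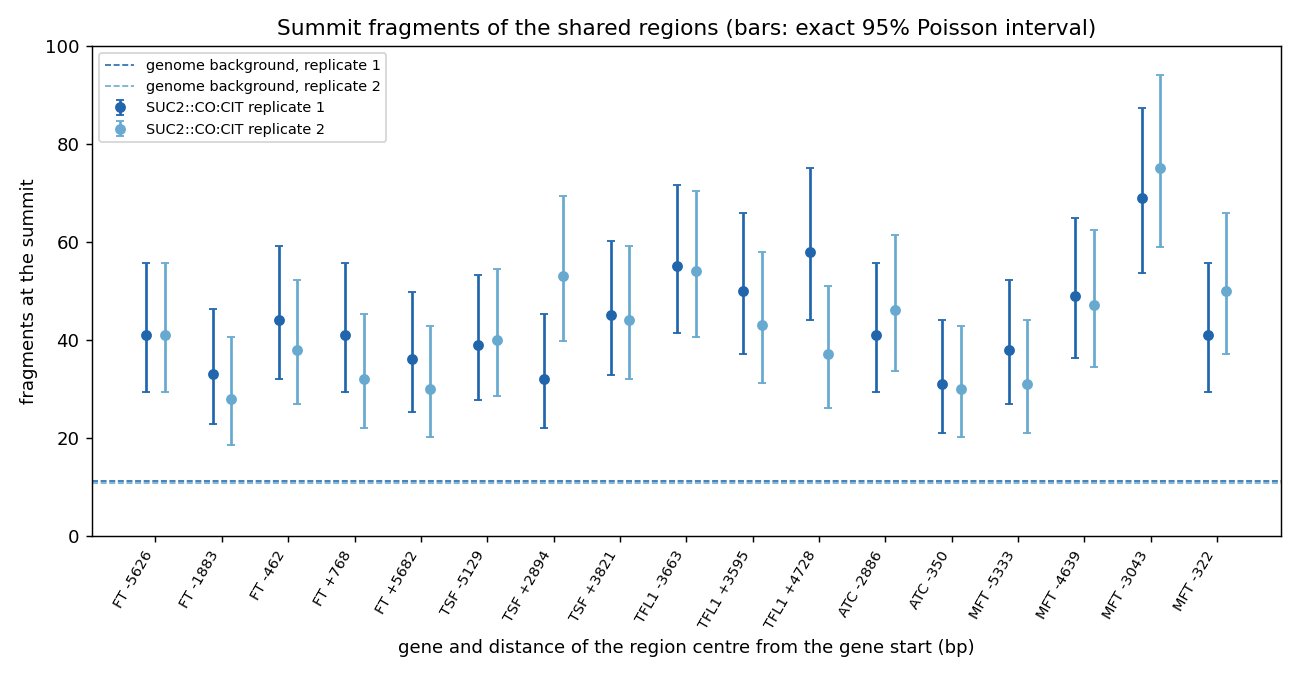
Fragments at the summit (y axis, linear) of the 17 shared regions, named by gene and distance from its start in bp (x axis), in both *SUC2::CO:CIT* replicates. Bars are exact 95% Poisson intervals, which cover counting error only, and dashed lines the genome background of 11.2 and 10.8 fragments. The *MFT* region at −3043 bp is highest, with 69 and 75 fragments.

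*BFT* (chr5:24922802-24923797, plus strand), another floral repressor, had no peak in its window in any library. No peak in either *SUC2::CO:CIT* library was found at 15.1% of all genes. At the genome background, 23 and 22 fragments were needed for a peak in replicates 1 and 2, a fold enrichment of 1.97 and 1.94, so that weaker enrichment at *BFT* was not detectable at this depth. *BFT* stands apart from the other members in base composition. It had 36.8% GC, against 30.0% at *FT* and 32.3% to 33.9% at the other members. Of its 49 tiles of 200 bp, 1 had less than 25% GC, against 8 of 58 tiles at *FT*. The 1000 bp upstream of *BFT*, with 29.5% GC, lay within the range of the other members. *BFT* also has neighbours on both sides, and the gene *OXA1* overlaps its end.

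Where shared regions occurred, they were AT-rich at every member. The GC content of the 200 bp around their centres was 12% to 27.5%, with a median of 20%. All 16315 shared regions had a median of 21%, and the genome has 36.0%. Of the tiles below 25% GC, 4 of 12 at *MFT*, 2 of 10 at *TSF*, 2 of 8 at *TFL1*, 1 of 6 at *ATC* and 0 of 1 at *BFT* held the centre of a shared region, against 4 of 8 at *FT*. Genome-wide, 28.6% of tiles below 25% GC held one, and 2.74% of all tiles. The 1000 bp upstream had 21.9% GC at *MFT*, 30.2% at *ATC*, 29% at *TSF*, 31.6% at *TFL1* and 29.5% at *BFT*, against 26.9% at *FT*. The part of base composition in the layout of the peaks was not tested.

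**Figure D4:**
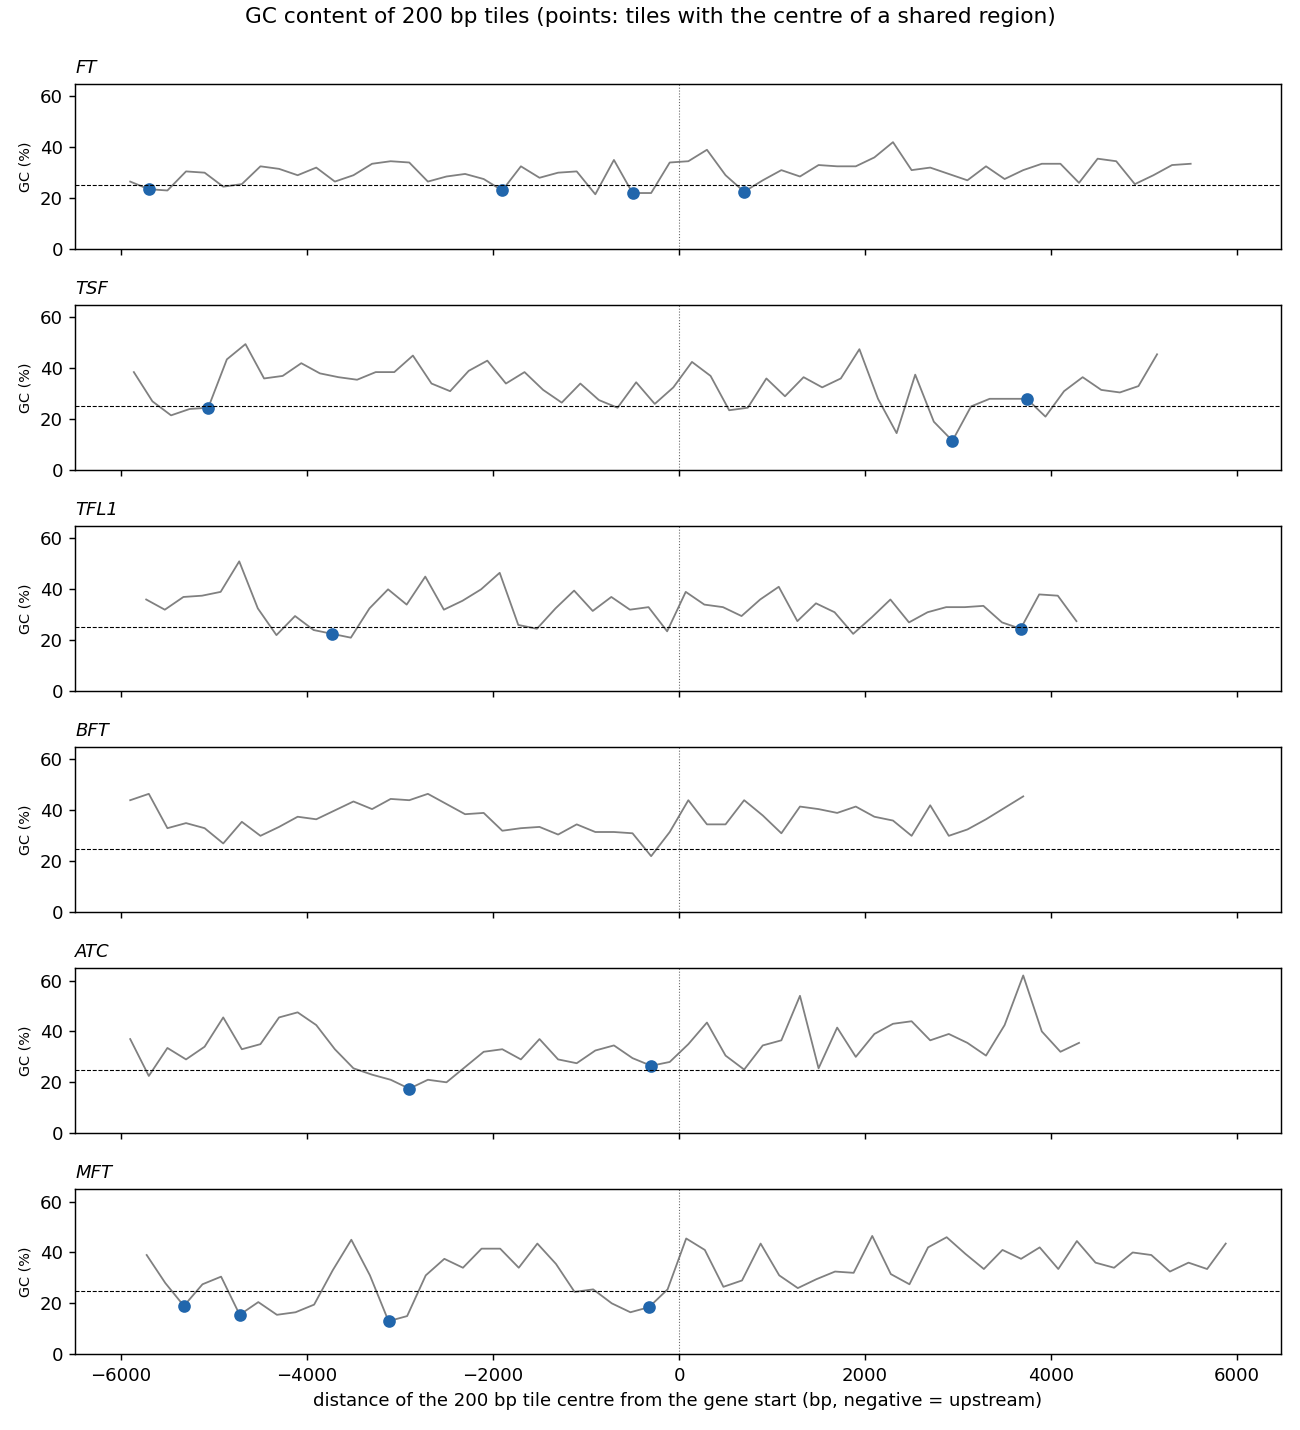
GC content in percent (y axis) of consecutive 200 bp tiles by distance from the gene start in bp (x axis) in the 6 windows. Points mark tiles that hold the centre of a shared region, and the dashed line is at 25%. Most points sit in dips of the curve, and *BFT* has a single tile below the line and no point.

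The words known from CO and NF-Y binding were looked up in the 200 bp around each centre, on both strands. TGTG or its complement CACA was found in 7 of the 17 regions (41.2%), against 57.8% of all shared regions, 74.7% of all 200 bp tiles and 57.3% of the tiles below 25% GC. Among the 3 regions next to a gene start, *ATC* had 1 such word, *MFT* none and *FT* none. The whole *MFT* region of 945 bp held 3, and the whole *FT* region at −462 bp held 0. CCAAT or ATTGG was found in 7 of the 17 regions (41.2%), against 27.3% of all shared regions, 35.4% of all tiles and 26.9% of the AT-rich tiles. None of the 3 regions next to a gene start held it. With the 1000 bp upstream taken whole, TGTG or CACA occurred 6 times at *TSF* and *TFL1*, 8 times at *BFT* and 3 times at *ATC* and *MFT*, against 6 times at *FT* and a median of 7 over all genes. *BFT*, with the most words of the family, had no peak, and 48.1% of all genes had at least as many words. A link between the number of words and the presence of a shared region was not tested. CCAAT or ATTGG occurred 4 times at *TFL1*, 2 times at *TSF* and *BFT*, once at *ATC* and not at *MFT*, against once at *FT* and a median of 2 over all genes.

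To compare layouts, the positions of the 5 *FT* regions, taken as distances from the gene start, were looked up at the other members. The position at −462 bp was covered in both replicates at *ATC* and *MFT*, and at 18.5% of all genes. That at −5626 bp was covered at *TSF*, through the region next to *JMJ14*, and at 7.79% of all genes. The positions at −1883, 768 and 5682 bp were covered at 7.62%, 3.25% and 8.86% of all genes and at no other member. At the intron position of *FT*, the replicate 1 peak in the first intron of *TSF* overlapped, without a partner in replicate 2.

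Likeness to *FT* was measured over the 6000 bp upstream as the Jaccard index, the bases covered in both replicates at both genes over the bases covered at either. *TSF* had an index of 0.141, *MFT* 0.105 and *ATC* 0.0376, while *TFL1* and *BFT* had 0, as had 70.9% of 27432 genes. Among all genes *TSF* ranked 3701, *MFT* 4925 and *ATC* 6957. The order depended on the stretch used. Within 3000 bp upstream, *MFT* had 0.203, *ATC* 0.0536 and *TSF* 0. With bases covered in either replicate, *TSF*, *TFL1*, *ATC* and *MFT* lay between 0.146 and 0.169. The 3 genes with the layout most like that of *FT* were outside the family, namely AT1G78190 with an index of 0.553, *GDI2* (AT3G59920) with 0.548 and AT1G58110 with 0.545.

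Many of the family's regions lie nearer to another gene than to the member in whose window they fall. The own gene start was the nearest for 1 of 4 regions at *MFT*, 2 of 3 at *TSF*, 1 of 3 at *TFL1* and 1 of 2 at *ATC*, against 3 of 5 at *FT*. Over the family this was 8 of 17 regions, and 4 of the 11 upstream ones. The centres of 15 of the 17 regions lay in intergenic sequence. Neither share was computed over all shared regions, so neither count is read as particular to the family. Replicates overlapped at the family about as often as in the whole lists, with 19 of 23 peaks (82.6%) in replicate 1 against 80.1% of its list, and 15 of 19 (78.9%) in replicate 2 against 74.2%. The 8 peaks without a partner had 25 to 36 summit fragments (median 28.5), and the 34 with a partner had 28 to 75 (median 41).

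A stricter threshold removed every shared region of *FT*. At a −log10 q of at least 10 in both replicates, 3 members kept a shared region, namely *TSF* at 3821 bp, *TFL1* at −3663 bp and *MFT* at −3043 and −4639 bp, whereas *FT*, *ATC* and *BFT* had none. At this threshold 31.8% of all genes had a shared region in the window. No member had one in the 1000 bp upstream, where 9.46% of all genes had one. At *FT* the −log10 q was 11.3 in replicate 1 and 8.49 in replicate 2 at −462 bp, and at −5626 bp it was 9.68 in replicate 1 and just above 10 in replicate 2.

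In the *aba1-6* background none of the 6 genes had a peak in its window. At *FT*, 0 and 0 peaks were called in *SUC2::CO:CIT aba1-6*, against 5 and 8 in *SUC2::CO:CIT*. With 0 in both *SUC2::CO:CIT aba1-6* libraries throughout, the *SUC2::CO:CIT* replicates had 5 and 3 peaks at *TSF*, 5 and 2 at *TFL1*, 3 and 2 at *ATC*, 5 and 4 at *MFT*, and 0 and 0 at *BFT*. Peaks of *SUC2::CO:CIT aba1-6* lay in the windows of 1.48% of all genes in replicate 1 and 2.38% in replicate 2, so that their absence from 6 genes is what most genes show. The nearest one lay 28.2 kb from *ATC*, in replicate 2, and 48.7 kb from *FT*, in replicate 2. The difference in peak number (*SUC2::CO:CIT aba1-6* minus *SUC2::CO:CIT*) was −6.5 at *FT*, −4.5 at *MFT*, −4 at *TSF*, −3.5 at *TFL1*, −2.5 at *ATC* and 0 at *BFT*. The genotypes did not overlap at 5 of the 6 genes, and at 73.3% of all genes, so that the family stands near the background here too. An exact permutation test of 2 against 2 libraries gives a two-sided p of 0.333 for each of the 5, the smallest it allows. The separation was lost at *TFL1* in the window of 3000 bp upstream to 1000 bp downstream and at *ATC* at a −log10 q of at least 10, with a difference of −0.5 in each case (exact permutation test, p = 1).

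Depth and base composition moved with the genotype in this comparison. The paper reports very low mapping rates for both replicates of the ABA-deficient line, and holds that low DNA yields probably affected its results there. After subsampling the reads of the other genotype to similar rates, the authors still called many more peaks in it. They propose that weak CO binding may explain part of the loss of reproducible peaks. Mapping rates were not analysed here. Fragments needed for a peak at the genome background were 11 and 5 in *SUC2::CO:CIT aba1-6*, against 23 and 22 in *SUC2::CO:CIT*. Each summit of *SUC2::CO:CIT* replicate 1 at the family was scaled by the ratio of the backgrounds, as if the genotypes differed in depth only. With Poisson counts around the scaled values, 15.9 of 23 peaks were expected to reach the 11 fragments of *SUC2::CO:CIT aba1-6* replicate 1. For its replicate 2, 3.99 of 23 were expected to reach 5 fragments. From *SUC2::CO:CIT* replicate 2 the numbers were 12.5 and 3.43 of 19 peaks. These are high values, since a summit is the highest point of its peak and only peaks already called in *SUC2::CO:CIT* were scaled. The chance was highest for the *MFT* peak at −3025 bp (the replicate 1 summit of the region at −3043 bp), at 99.7% for replicate 1 and 51.9% for replicate 2, against 82.7% and 19.2% for the *FT* peak at −460 bp. In both *SUC2::CO:CIT aba1-6* libraries 0 peaks were called at the family. The *SUC2::CO:CIT aba1-6* lists also differed in composition, with 0 of 168 and 0 of 258 summits below 25% GC, against 78.1% and 75.4% in *SUC2::CO:CIT*. Of the 16315 shared regions, 11 and 14 overlapped a peak of *SUC2::CO:CIT aba1-6* replicates 1 and 2. The part of depth and of base composition in the missing peaks was not tested.

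Other genes of the florigen pathway were looked up in the same way, from a list of 21 regulators, partners and targets of *FT*. A shared region was found in the window of 14 of the 21, against 71.5% of all genes, and the median was 1 per gene for the list as for all genes. In the 1000 bp upstream one was found at 4 of the 21, against 30.3% of all genes, so that neither count exceeds the background. The 4 were *TEM2* and *FLC*, which encode repressors of *FT*, and *FD* and *FDP*, which encode bZIP partners of the FT protein. *FUL*, a target of FT and FD at the apex, had 4 shared regions, whereas *SOC1* and *LFY*, targets of the same pathway, had 0, as did *CO* itself. *FTIP1*, *APL*, *LHP1* and *SPL3* also had 0. Replicate 2 alone had 1 peak at *SOC1* and 3 at *LFY*. *SUC2::CO:CIT aba1-6* had peaks at 1 of the 21 genes in replicate 1 (*CO*), against 1.48% of all genes. In replicate 2 it had peaks at 2 of the 21 (*GI* and *APL*), against 2.38% of all genes. With so few genes, no excess over all genes is read from these counts.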

How the data were processed

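ChIP-seq peaks came from 4 libraries, 2 biological replicates of each genotype, with chromatin from 5 g of seedlings. The authors used fastp for trimming, Bowtie2 for mapping to TAIR10.1, and macs2 to call peaks in each library, unpooled, against its input. The paper then kept only peaks that were reproducible between replicates by the irreproducible discovery rate and lay outside blacklisted regions. That filter was not applied here, so the shared regions, formed by an overlap of at least 1 bp, are a looser set. Versions are not given in the sources used here. The deposited fold enrichment is the ratio of fragments to local background, both plus a pseudocount of 1. Both −log10 columns (p-value and q-value) were deposited as macs2 gave them, with peaks called at a −log10 p of about 3. The deposited score was read but not used, and the authors' summit offsets gave the summits. The 4 input libraries entered only through the background, and sequencing depth was judged from it.

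Fragments at each summit were recovered from the fold enrichment and p-value, within 0.01, for 98.2% and 99.2% of *SUC2::CO:CIT aba1-6* peaks and for every peak at the 6 genes. On 2000 simulated peaks 100% were recovered. Intervals are exact 95% Poisson intervals and cover counting error only. Windows and gene models followed RefSeq TAIR10.1, whose sequence names match the files. Peaks per window were tested between genotypes by an exact permutation test over libraries. Shared regions were counted at all 27444 nuclear protein-coding genes as background, and GC content was taken over 200 bp. Alternatives were the −log10 q (5 or 10), the overlap (50% of the shorter peak), a window of 3000 bp upstream to 1000 bp downstream, the summit, the start codon, each library left out, and a replicate block. Python 3.11.15, numpy 2.4.6, pandas 2.3.3, scipy 1.17.1 and matplotlib 3.10.9 were used. The members, lists and alternatives were chosen with earlier results of these data known. Named genes were the 6 members, the 3 genes most like *FT* by the Jaccard index, neighbours of the described regions, and examples from the pathway list.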

Additional observations from a re-analysis of the deposited data

How the results depend on the processing

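With peaks limited to a −log10 q of 10 or more, members with a shared region in their window numbered 3 in place of 5, and those with one in the 1000 bp upstream 0 in place of 3. The other alternatives left these counts within 1.5 times (4 members with the window of 3000 bp upstream to 1000 bp downstream, and 2, *FT* and *MFT*, upstream at a −log10 q of at least 5). Differences in peak number between the genotypes kept their sign at the 5 genes with peaks, but not their size or order. With the −log10 q limit of 10 they were −1 at *FT*, −1.5 at *TSF*, −2.5 at *TFL1* and *MFT*, and −0.5 at *ATC*. In the narrower window they were −3.5 at *FT*, −2 at *TSF*, *ATC* and *MFT*, and −0.5 at *TFL1*. A −log10 q of at least 5 gave −1.5 at *ATC*. With 1 library left out in turn, they ranged from −8 to −5 at *FT*, −5 to −3 at *TSF*, −5 to −2 at *TFL1*, −3 to −2 at *ATC* and −5 to −4 at *MFT*, and stayed at 0 at *BFT*. With the replicate block the differences were the same, −6.5 at *FT*, and the smallest two-sided p it allows is 0.5 (exact permutation); the numbers name replicates, and no shared batch is given. Dropping the pseudocount gave a mean fold enrichment of the nearest upstream region of 3.59 in place of 3.37 at *TSF*, 4.95 in place of 4.62 at *TFL1* and 2.77 in place of 2.62 at *ATC*. Depth limits every statement on *SUC2::CO:CIT aba1-6*, since at the genome background the fewest fragments that gave a peak there correspond to a fold enrichment of 2.63 and 3.38.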
